A study of Mus musculus with 18 samples.

Results

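The oxidative phosphorylation system was followed in cultured mouse kidney tubule cells by the messenger RNA of its subunits. Members were chosen by symbol alone: Nduf genes (complex I and its assembly factors), Sdha to Sdhd (complex II), Uqcr genes (complex III), Cox4 to Cox8 genes (complex IV), Atp5 genes (the ATP synthase, complex V) and the protein-coding genes of mitochondrial DNA. The rule took 107 of 55487 gene rows after 13 pseudogene rows were left out of 120 matches. They were 46 nuclear genes of complex I, 4 of complex II, 8 of complex III, 18 of complex IV, 18 of complex V and 13 mitochondrially encoded genes. Reads were found for 103 of the 107, and 94 passed the filter on low counts and were tested (45, 4, 8, 13, 17 and 7 in the order above).

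The cells were im-TEC, a conditionally immortalized line of mouse tubular epithelial cells carrying SV40 large T antigen. All 18 cultures had been moved to the restrictive temperature without interferon-γ before the experiment. The agents were transforming growth factor β (TGFβ), a profibrotic cytokine, at 10 ng/mL, nicotinamide, called NAM here, at 1 mM, and the methyl donor S-adenosyl methionine, called SAM here, at 0.5 mM. The 6 groups of 3 libraries were untreated control, each agent alone, and TGFβ combined with either NAM or SAM, with 48 h of treatment. NAM and SAM are the substrates of nicotinamide N-methyltransferase, the enzyme in the title of the series. The labels do not say that replicates were separate cultures on separate days, so p-values measure only the spread between these libraries.

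Complexes I and II pass electrons from NADH and succinate to ubiquinone, complex III passes them on to cytochrome c, and complex IV reduces oxygen. Complexes I, III and IV pump protons across the inner mitochondrial membrane, and complex V uses the gradient to make ATP. Kidney tubule cells depend on this system for the transport work they do. Complex II is encoded wholly in the nucleus, whereas the other complexes mix nuclear subunits with a few made from mitochondrial DNA, so both genomes are read together.

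Libraries held 4171170 to 7717626 reads in genes. Mitochondrially encoded members took 2.84% to 4.97% of them and nuclear members 1.01% to 1.73%. The tubule genes Pax8, Cdh16, Lrp2 and Aqp1 were present in the control cells, whereas Epcam, Umod, Vil1 and Slc34a1 had no reads there and Cdh1 averaged 0.21 CPM (counts per a fixed total of reads, after scaling between libraries), so the labelled cell type was only partly borne out by these markers. The 14 tubule markers summed to 1649 to 1722 CPM in control and 626 to 691 CPM in TGFβ libraries. Of 6 fibroblast markers, summing to 3.29 to 7.09 CPM in control and 109 to 115 CPM in TGFβ libraries, Col1a1 made up nearly all, and Pdgfra and Lum were at 0 in both groups. Immune markers summed to 12.01 to 15.4 CPM in control and 5.73 to 8.33 CPM in TGFβ libraries, with Adgre1 and Cd3e at 0 and Cd68 holding most. Endothelial markers summed to at most 0.16 CPM in both groups. The podocyte list summed to 299.99 to 327 CPM in control and 312 to 346 CPM in TGFβ libraries, nearly all of it Synpo and Podxl, with Nphs1 at 0. In SAM libraries the tubule list summed to 1829 to 1892 CPM and in TGFβ+SAM libraries to 596 to 686 CPM. The fibroblast list summed to 1.21 to 2.03 CPM with SAM and 37.8 to 50.5 CPM with TGFβ and SAM, and the immune list to 20.6 to 34.1 CPM and 11.02 to 15.4 CPM. The part of these shifts in the results was not tested.

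TGFβ was set against control first, which asks what the cytokine does to the respiratory genes in unsupplemented cells. Of the 94 tested members, 63 fell and 0 rose (edgeR quasi-likelihood test, adjusted p under 0.05). Over all 13469 tested genes 19.4% were called, 9.74% lower and 9.70% higher. The median log2 change was -0.42 over the members and 0.01 over all genes. In all, 74 members had an unadjusted p under 0.05. Falls were mostly modest: only Cox6a2 and Ndufa1 passed with a log2 change under -1. CPM is a share of a library's reads, and in bulk RNA fewer cells of a type and less RNA per cell cannot be told apart.

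**Figure D1:**
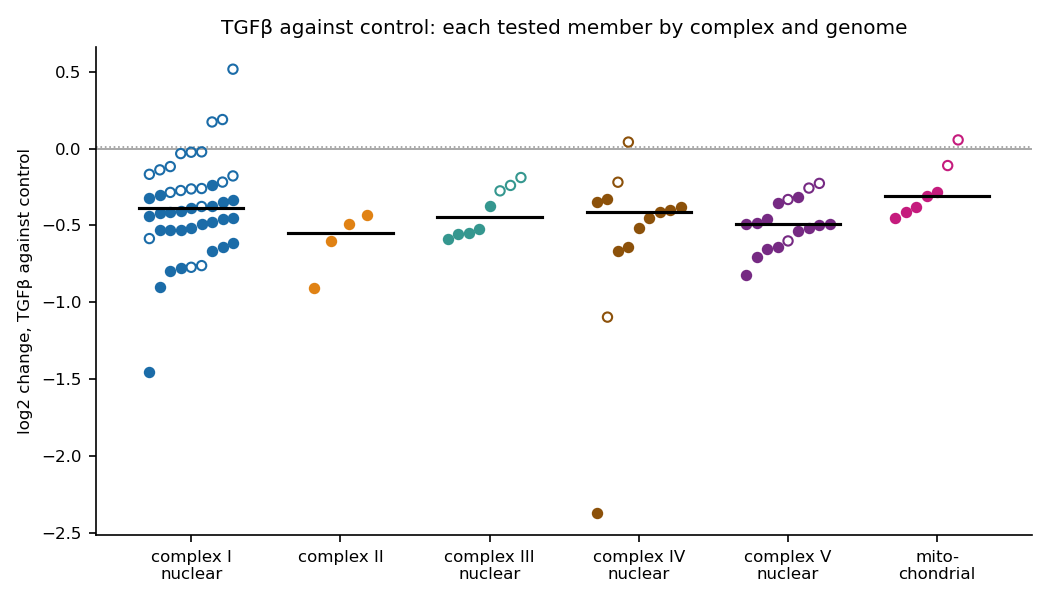
Log2 change in TGFβ against control for each of the 94 tested members (vertical axis), by complex and genome (horizontal axis). Filled points passed an adjusted p under 0.05, open points did not, black bars are group medians and the dotted line is the median of all 13469 genes (0.01). All 6 group medians lie below 0, from -0.31 for mitochondrially encoded members to -0.55 for complex II.

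Of the 45 tested nuclear members of complex I 26 fell, with a median log2 change of -0.39. Ndufa1, a small membrane-arm subunit encoded on the X chromosome (GRCm38, chrX:37187588-37191163, minus strand), had 144, 157 and 160 CPM in the control libraries and 58.5, 56.2 and 53.6 CPM in the TGFβ libraries. The highest TGFβ library stayed below the lowest control library. The fitted log2 change was -1.45 ± 0.13 (SE, edgeR adjusted p = 3.6e-12). Ndufb8, another membrane-arm subunit, had 315, 286 and 307 CPM in control and 155, 183 and 149 CPM in TGFβ libraries (log2 change -0.90 ± 0.09, edgeR adjusted p = 3.4e-10). Of the 50-base words at the end of its transcript, 31.1% are shared with the overlapping gene model Gm20538, which had no reads. Again no library of one group reached the other.

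The accessory subunits Ndufb5, Ndufv3, Ndufb10 and Ndufa5 also fell, with log2 changes of -0.78, -0.80, -0.64 and -0.62. The 7 nuclear core subunits include those that carry the flavin and the iron-sulfur clusters. Of these, Ndufv1, Ndufs1, Ndufs7 and Ndufs8 fell, with log2 changes of -0.42, -0.49, -0.46 and -0.48. Ndufv2 and Ndufs3 had log2 changes of -0.27 and -0.59 and did not pass (adjusted p = 0.090 and 0.14). Ndufs3 is uncertain, since 53.0% of its end is shared with the pseudogene Gm12251, whose row held 724 reads against 1383. Ndufa2, the complex I member with the highest mean CPM, went from 327 ± 20.0 CPM (SD, n = 3 libraries) to 278 ± 7.73 CPM, a log2 change of -0.24 (edgeR adjusted p = 0.048), and lost its call without control replicate 1 or 2 or any 1 TGFβ library. Its adjusted p was then 0.074 to 0.21.

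The Ndufaf genes encode factors that build complex I and then leave it, so they are members by name and not subunits. None of the 8 passed, and their median log2 change was -0.02, against -0.42 for the 37 structural members, of which 26 fell. Values ran from -0.76 for Ndufaf5 (adjusted p = 0.078) to 0.52 for Ndufaf1 (adjusted p = 0.19). The factors were measured at lower levels, with a median control mean of 17.8 CPM against 137 CPM for the structural members, and a difference between the classes was not tested.

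All 4 complex II genes fell, the only complex with every tested member called in this comparison. Sdhd, a membrane anchor of the complex (GRCm38, chr9:50596357-50603812, minus strand), had 94.6, 102 and 96.6 CPM in control and 47.5, 63.8 and 44.2 CPM in TGFβ libraries. The groups did not overlap, and the log2 change was -0.91 ± 0.15 (edgeR adjusted p = 7.5e-06). Sdhb, the iron-sulfur subunit, had 178, 213 and 199 CPM in control and 134, 128 and 126 CPM in TGFβ libraries (log2 change -0.60 ± 0.10, edgeR adjusted p = 9.4e-06). Sdha, the flavoprotein that oxidizes succinate, went from 152, 141 and 149 CPM to 107, 93.8 and 115 CPM (log2 change -0.49 ± 0.10). Sdhc, the other anchor, went from 126, 112 and 121 CPM to 92.8, 88.5 and 85.0 CPM (log2 change -0.43 ± 0.11). Of the 4 genes, Sdhc had the smallest log2 change.

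Of the 8 tested nuclear members of complex III 5 fell. Uqcrh, the hinge subunit that lies beside cytochrome c1, had 299, 297 and 325 CPM in control and 203, 202 and 222 CPM in TGFβ libraries (log2 change -0.56 ± 0.08, edgeR adjusted p = 2.4e-06). The groups did not overlap. Uqcr10, Uqcr11 and the Rieske iron-sulfur protein Uqcrfs1 had log2 changes of -0.55, -0.59 and -0.52. The core protein Uqcrc2 had a log2 change of -0.37 (edgeR adjusted p = 0.0087), with an adjusted p of 0.083 without control replicate 2 and 0.061 without TGFβ replicate 2. Its partner Uqcrc1 stood at -0.27 (adjusted p = 0.068) and Uqcrq, which had the highest mean CPM of the complex, at -0.19 (adjusted p = 0.12). Cytochrome c1 itself, Cyc1, is a complex III subunit that the symbol rule does not take. It fell from 127 to 83.6 CPM (log2 change -0.60).

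Of the 13 tested nuclear members of complex IV 10 fell. Cox8a had 520, 523 and 523 CPM in control and 335, 320 and 333 CPM in TGFβ libraries (log2 change -0.67 ± 0.09, edgeR adjusted p = 4.6e-07). The spread within each group was far smaller than the gap between them. Cox7b (-0.64), Cox5a (-0.52), Cox7a2 (-0.45), Cox6b1 (-0.41), Cox6c (-0.40), Cox6a1 (-0.35) and Cox4i1 (-0.33) also fell on the log2 scale. Cox5b, which holds a zinc site in the enzyme, was less firm at -0.38 (adjusted p = 0.031) and did not pass without any 1 control library or without TGFβ replicate 1 or 3 (adjusted p from 0.063 to 0.21). Ndufa4, named for complex I and since placed in complex IV, is counted here with complex I. It fell by 0.67 on the log2 scale, from 178 ± 17.3 to 113 ± 16.6 CPM (SD, n = 3 libraries).

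Several complex IV subunits have a second form used in heart and skeletal muscle, in lung or in testis. In these tubule cells the widespread forms held nearly all reads: Cox6a1 averaged 668 CPM in control against 3.81 CPM for the muscle form Cox6a2, and Cox7a2 averaged 345 CPM against 7.34 CPM for the muscle form Cox7a1. Each read is a 3′ tag, so these CPM are not divided by transcript length. Cox6a2 (GRCm38, chr7:128205435-128206387) had 15, 45 and 17 reads in control and 5, 5 and 2 reads in TGFβ libraries. Its log2 change of -2.37 ± 0.72 (edgeR adjusted p = 0.015) lost the call without control replicate 2 (-1.75, adjusted p = 0.15) or TGFβ replicate 3 (-2.20, adjusted p = 0.058). Cox7a1 (GRCm38, chr7:30184144-30186078) had 31, 82 and 35 reads in control and 20, 26 and 11 reads in TGFβ libraries, a log2 change of -1.10 that did not pass (adjusted p = 0.081). The lung form Cox4i2 and the testis form Cox7b2 were at or near 0, Cox8b and Cox8c had no reads, and Cox6b2 and Ndufa4l2 averaged 0.758 and 0.501 CPM over all libraries, below the filter.

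**Figure D2:**
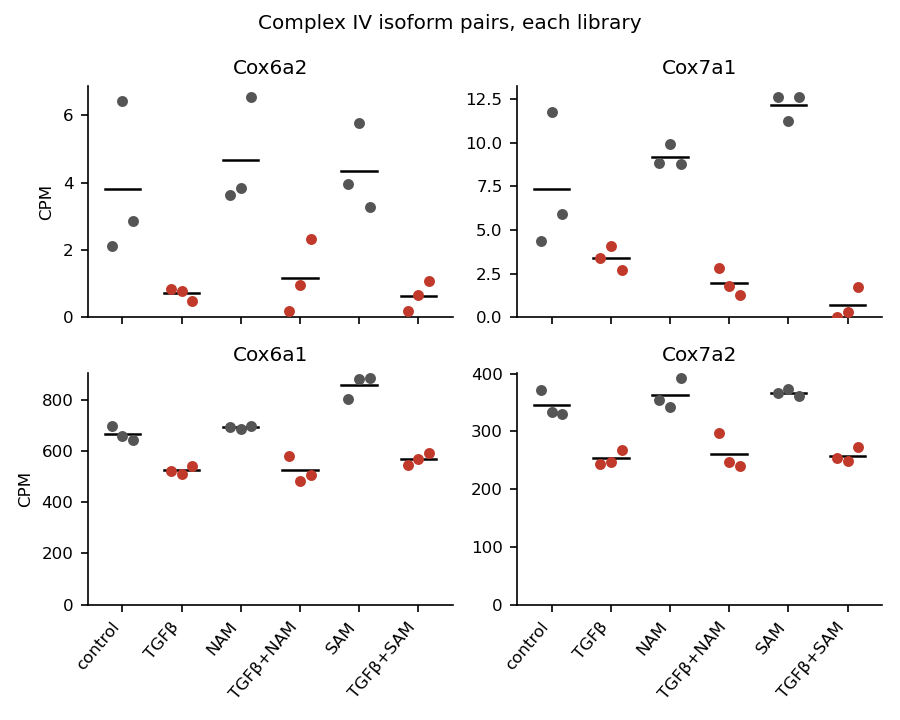
CPM (vertical axis, starting at 0) of the muscle forms Cox6a2 and Cox7a1 and the widespread forms Cox6a1 and Cox7a2 in each of the 18 libraries, by group (horizontal axis). Points are libraries, red with TGFβ and grey without, and bars are group means. Cox7a1 lies between 11.3 and 12.6 CPM in the SAM libraries and between 0 and 1.71 CPM with TGFβ and SAM.

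Of the 17 tested nuclear members of complex V 13 fell, with a median log2 change of -0.49. The catalytic F1 head was called in all 5 of its subunits. Atp5b, the subunit that makes ATP, had 448, 396 and 430 CPM in control and 280, 261 and 279 CPM in TGFβ libraries (log2 change -0.64 ± 0.09, edgeR adjusted p = 2.6e-07). Atp5a1, its partner in the head, had 548, 550 and 537 CPM in control and 368, 299 and 335 CPM in TGFβ libraries (log2 change -0.71 ± 0.09, edgeR adjusted p = 1.7e-08). Neither gene had a TGFβ library within the control range. Atp5c1, Atp5d and Atp5e had log2 changes of -0.53, -0.49 and -0.49.

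The c-ring of the rotor is built from the same mature protein, encoded by 3 genes. Atp5g3 held most of its reads and was the nuclear member with the highest mean CPM of complex V, with 1203, 1225 and 1269 CPM in control and 794, 731 and 826 CPM in TGFβ libraries (log2 change -0.65 ± 0.08, edgeR adjusted p = 9.2e-08). Atp5g1 fell by 0.82 on the log2 scale, from 20.03 to 11.2 CPM. Atp5g2, at 7.07 CPM in control, did not pass (log2 change -0.33), and 98.4% of its end is shared with the pseudogene Gm10175. Of the 4 peripheral stalk genes, Atp5f1, Atp5j and Atp5o fell (-0.51, -0.49 and -0.46) and Atp5h did not pass (-0.26, adjusted p = 0.33).

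Promoters are shown for the member with the smallest p in complexes I, II and III and for Atp5g3, which came after Atp5a1 in complex V, since these members fell together. RefSeq start sites were matched for 76 nuclear members. Windows of 300 bases, reaching from before to just after the start, were searched on both strands for NRF1 (GCGCANGCG), ETS or GABP (CCGGAAG), YY1 (AANATGGCG) and estrogen-related receptor (ERR, TNAAGGTCA) motifs. The 150 bases before the start follow, 5′ to 3′ on the gene's strand, with the motif letters in capitals on either strand.
Ndufa1 (GRCm38.p6 chrX:37191239-37191388, minus strand): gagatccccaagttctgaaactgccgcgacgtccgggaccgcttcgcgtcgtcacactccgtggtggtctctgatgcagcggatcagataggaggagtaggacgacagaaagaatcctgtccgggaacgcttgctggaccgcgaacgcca
Sdhd (GRCm38.p6 chr9:50603850-50603999, minus strand): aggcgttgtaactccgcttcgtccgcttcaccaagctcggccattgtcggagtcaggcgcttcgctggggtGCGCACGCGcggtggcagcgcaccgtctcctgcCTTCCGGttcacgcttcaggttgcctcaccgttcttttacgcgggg
Uqcrh (GRCm38.p6 chr4:116075071-116075220, minus strand): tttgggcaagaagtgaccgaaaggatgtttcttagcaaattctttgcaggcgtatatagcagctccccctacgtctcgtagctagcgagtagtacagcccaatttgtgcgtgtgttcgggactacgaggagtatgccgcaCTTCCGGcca
Atp5g3 (GRCm38.p6 chr2:73911327-73911476, minus strand): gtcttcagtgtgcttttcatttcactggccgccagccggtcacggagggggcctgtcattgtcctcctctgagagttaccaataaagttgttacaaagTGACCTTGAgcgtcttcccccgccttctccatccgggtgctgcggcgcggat
In the printed stretches Sdhd holds an NRF1 and an ETS match, Uqcrh an ETS match and Atp5g3 an ERR match. Beyond them, after the start, the searched windows also hold an ERR match in Sdhd and an NRF1 match in Atp5g3. None of these letters is in the Ndufa1 window. Among the 76 members 27.6% held the NRF1 letters, 22.4% ETS, 11.8% YY1 and 3.95% ERR. Over all 32851 RefSeq windows of that length, which include noncoding genes, the shares were 6.25%, 8.86%, 2.38% and 1.28%. Members with and without the NRF1 letters had median log2 changes in TGFβ against control of -0.49 and -0.45, and for ETS they were -0.49 and -0.45. For YY1 they were -0.37 (9 members with the letters) and -0.48, and for ERR -0.65 (3 members) and -0.45. These differences were not tested. A match is a description of the letters only.

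Mitochondrial DNA encodes 7 complex I subunits, cytochrome b of complex III, 3 complex IV subunits and 2 complex V subunits, but only 7 of these 13 genes were measured. The rows of mt-Atp6, mt-Atp8, mt-Co2, mt-Co3, mt-Nd3 and mt-Nd4l held 0 to 5 reads over all 18 libraries together. The limit that 0 reads allow, 3 counts, corresponds to 0.0266 CPM over the 112711471 reads of all libraries. These near-empty rows touch the reading of the table, so sequences near the ends of mt-Co3 and mt-Cytb are shown with the matching part of a nuclear copy of mt-Co3.
mt-Co3 (GRCm38 chrM:9311-9370, plus strand): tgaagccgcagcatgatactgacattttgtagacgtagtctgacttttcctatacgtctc
Gm28437 (GRCm38 chr1:24613208-24613267, minus strand): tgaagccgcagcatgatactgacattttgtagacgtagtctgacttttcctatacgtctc
mt-Cytb (GRCm38 chrM:15209-15268, plus strand): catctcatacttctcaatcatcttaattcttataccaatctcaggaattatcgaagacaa
The mt-Co3 stretch and that of Gm28437, an annotated pseudogene on chromosome 1, are identical in 60 of 60 bases. Of all 50-base words in the last 300 bases of mt-Co3, 99.6% also occur in another annotated transcript. The share was 98.8% for mt-Atp6, 100% for mt-Co2, 98.8% for mt-Nd3 and 98.8% for mt-Nd4l, each with its closest copy in the same stretch of chromosome 1 (GRCm38, chr1:24612407-24615565). It was 0% for mt-Cytb, mt-Nd1, mt-Nd4 and mt-Nd6, 1.99% for mt-Nd5 and 31.9% for mt-Nd2. The pattern has exceptions on both sides: mt-Co1 shared 100% with Gm29216 and still held 112744 reads, and mt-Atp8, which overlaps mt-Atp6, shared 0% and held 5. Among nuclear members, 3 of 11 that shared 25% or more fell in TGFβ against control, and 55 of 76 that shared less. The median log2 changes were close, at -0.40 and -0.44. Members that shared 25% or more had lower levels, a median of 23.9 against 137 CPM in control. The handling of reads with several matches is not stated by the labels, and its part in these rows was not tested.

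Of the 7 measured mitochondrially encoded genes, 5 fell with TGFβ. mt-Nd4, whose product is a proton-pumping subunit of complex I, had 23016, 22453 and 21292 CPM in control and 16650, 13496 and 20095 CPM in TGFβ libraries (log2 change -0.41 ± 0.11, edgeR adjusted p = 0.0035). TGFβ replicate 3 lay nearest to control, and the call was lost without TGFβ replicate 2 (-0.28, adjusted p = 0.072) and with DESeq2 (adjusted p = 0.057). mt-Cytb had 9999, 10960 and 10837 CPM in control and 7757, 6214 and 9327 CPM in TGFβ libraries (log2 change -0.45 ± 0.11, edgeR adjusted p = 0.0024), with an adjusted p of 0.053 without TGFβ replicate 2. mt-Nd1 had 6365, 6658 and 6673 CPM in control and 5077, 4719 and 5372 CPM in TGFβ libraries (log2 change -0.38 ± 0.08, edgeR adjusted p = 0.00026). The TGFβ libraries of mt-Nd1 were closer to each other than those of mt-Nd4 and mt-Cytb.

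mt-Co1, the catalytic core of complex IV, had 1048, 977 and 1085 CPM in control and 858, 838 and 855 CPM in TGFβ libraries (log2 change -0.29 ± 0.07, edgeR adjusted p = 0.0038). mt-Nd5 fell by 0.31 on the log2 scale (edgeR adjusted p = 0.016). That call was lost without control replicate 2 or 3 or TGFβ replicate 1 or 2 (adjusted p from 0.061 to 0.10). mt-Nd2 did not pass, with 6373, 6275 and 6409 CPM in control and 5650, 5238 and 6766 CPM in TGFβ libraries (log2 change -0.11, adjusted p = 0.49). mt-Nd6, encoded on the other strand, stood at 18.2 ± 2.34 and 18.8 ± 3.71 CPM (SD, n = 3 libraries). It lies opposite the end of mt-Nd5, and without strand in the counting, which is not stated, reads of both could not be told apart.

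**Figure D3:**
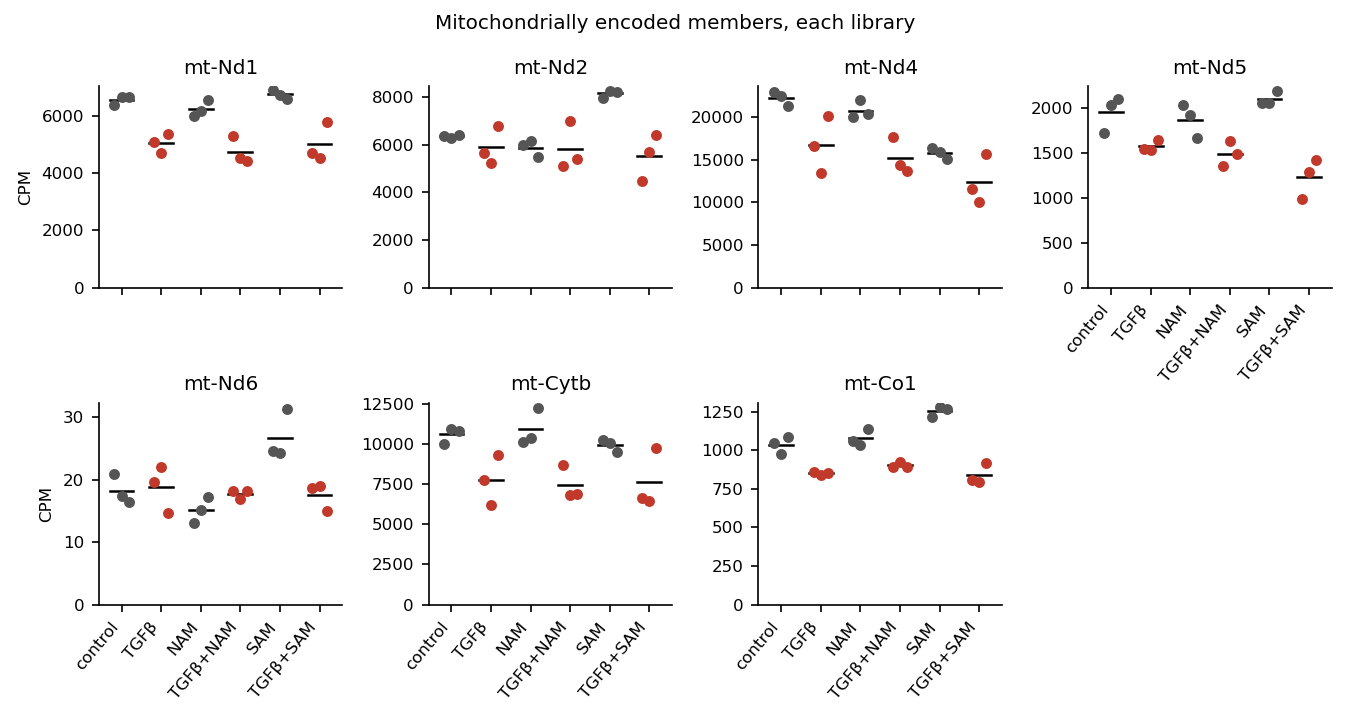
CPM (vertical axis, starting at 0) of the 7 measured mitochondrially encoded members in each of the 18 libraries, by group (horizontal axis). Points are libraries, red with TGFβ and grey without, and bars are group means. mt-Nd4 is lower in SAM than in control (15758 against 22254 CPM on average), whereas mt-Nd2 and mt-Co1 are higher in SAM.

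Summed over the measured genes, nuclear members went from 15234 ± 117 CPM in control to 10980 ± 235 CPM with TGFβ, and mitochondrially encoded members from 48776 ± 523 to 37898 ± 6017 CPM (SD, n = 3 libraries). The TGFβ libraries were thus much less alike for the mitochondrial sum, which ran from 32059 to 44078 CPM, than for the nuclear sum. The mitochondrial sum was 3.19, 3.22 and 3.20 times the nuclear sum in the control libraries and 3.35, 2.99 and 4.005 times in the TGFβ libraries, so the groups overlapped in this ratio. The scaling was also taken without the mitochondrially encoded members, though with the mitochondrial ribosomal RNAs kept in. Then 59 of 87 nuclear and 5 of 7 mitochondrially encoded members fell. The mitochondrial ribosomal RNAs, which are not members, had log2 changes of -0.26 for mt-Rnr1 (adjusted p = 0.17) and -0.43 for mt-Rnr2 (adjusted p = 0.00051).

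**Figure D4:**
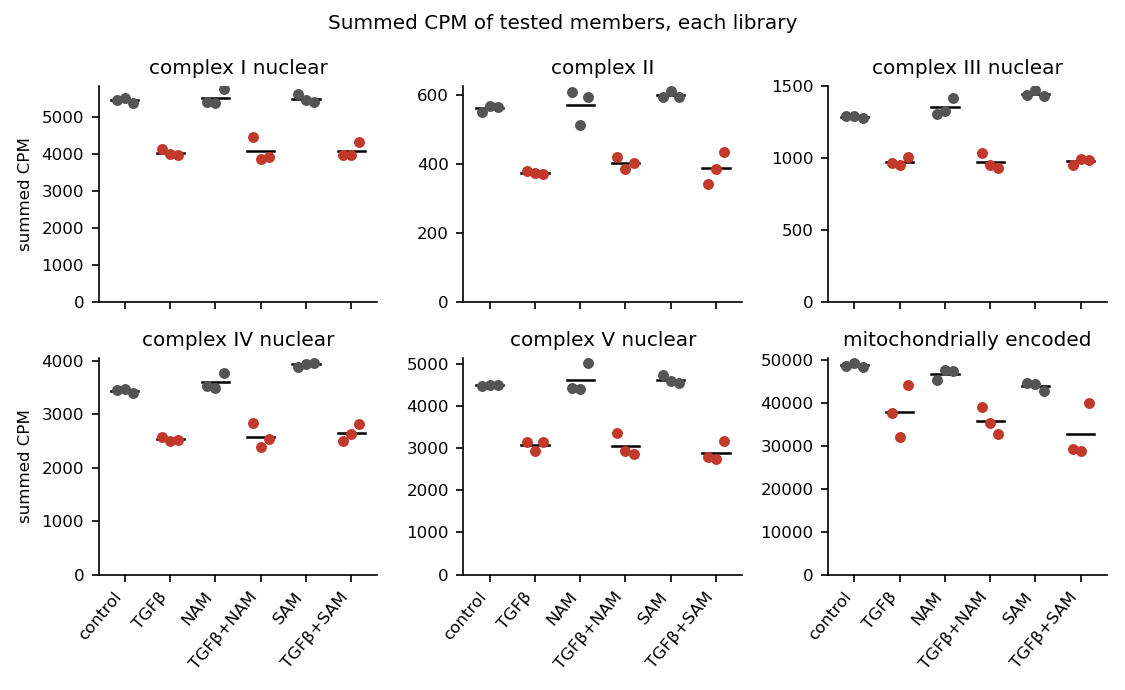
Summed CPM of the tested members of each complex and of mitochondrial DNA (vertical axes, starting at 0) in each of the 18 libraries, by group (horizontal axis). Points are libraries, red with TGFβ and grey without, and bars are group means. In each nuclear panel the TGFβ groups lie below their counterparts, and the mitochondrial sum spreads most in the TGFβ and TGFβ+SAM libraries.

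Genes around the respiratory chain were counted from lists of related genes. Of 18 tricarboxylic acid cycle and pyruvate dehydrogenase genes, which feed the chain with NADH and succinate, 12 fell and 0 rose with TGFβ (median log2 change -0.39). Idh3a (-1.06) and Idh2 (-0.91) were among them, and citrate synthase, Cs, did not pass (-0.25). Of 17 electron carrier and ubiquinone genes, 6 fell and 1 rose. Those that fell included cytochrome c, Cycs (-0.76), and the electron transfer flavoproteins Etfa (-0.65) and Etfb (-0.46), and the gene that rose was Coq10b (0.65), a coenzyme Q binding protein. Glycolytic genes fell as well, 11 of 16 with 0 rising (median -0.71), with Aldoa at -1.41 and Ldhb at -1.57.

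Lists for the machinery that builds and serves the chain were counted against the same background, 9.74% of all genes lower and 9.70% higher. Of 76 mitochondrial ribosome genes 6 fell and 1 rose (median log2 change -0.05). Of 40 assembly factors outside the symbol rule 3 fell and 2 rose (median -0.07): Cox20 (-0.90), Coa3 (-0.59) and Pet100 (-0.40), which serve complex IV, fell, and Tmem70 (0.56), which serves complex V, and Sco2 (0.66), a copper chaperone of complex IV, rose. Of 23 genes for mitochondrial DNA expression 1 fell, Lrpprc (-0.34), and 1 rose, Pnpt1 (0.71). Tfam, which packages and transcribes mitochondrial DNA, had a log2 change of 0.02. Of 23 outer membrane, import and carrier genes 5 fell and 0 rose, among them Vdac1 (-0.41), the ADP/ATP carrier Slc25a4 (-0.52) and the phosphate carrier Slc25a3 (-0.41).

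Among 12 tested regulators of respiratory genes, 2 fell and 2 rose. Ppargc1a, which encodes the coactivator PGC-1α, went from 162 CPM in control to 21.4 CPM with TGFβ (log2 change -2.93, edgeR adjusted p = 2.6e-20), and Hif1a fell by 0.36 on the log2 scale. Pprc1 (0.59) and Gabpa (0.52) rose. Of the other factors whose motifs were searched, Esrra (-0.07), Yy1 (0.19) and Nrf1 (adjusted p = 0.99) did not pass. Whether any regulator takes part in the fall of the members was not tested.

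The response to TGFβ was then read in cells given a supplement, in libraries that the first comparison does not use. With NAM, 62 of 94 members fell and 0 rose in TGFβ+NAM against NAM, where 21.9% of all genes were called, 11.0% lower and 10.9% higher (median log2 change of the members -0.41). With SAM, 68 fell and 0 rose in TGFβ+SAM against SAM, where 28.4% of all genes were called, 14.2% in each direction (median -0.49). These comparisons share no library with each other, though all were fitted together. In all 3 comparisons 55 members fell, and 20 fell in none. Of all 13469 genes 6.65% fell in all 3 and 82.0% in none. Members that fell in all 3 included all 4 of complex II, 20 of 45 of complex I, 5 of 8 of complex III, 10 of 13 of complex IV, 11 of 17 of complex V and 5 of 7 mitochondrially encoded genes. In complex II, Sdha with NAM and Sdhc with SAM lost the call when single libraries were left out (adjusted p up to 0.13 and 0.12). SAM replicates 2 and 3 have treatment tags that differ from their titles, and without both, 1 SAM library remained. Among the named nuclear members, Sdhc, Uqcrc1 and Uqcrq then did not pass in TGFβ+SAM against SAM (log2 changes -0.29, -0.36 and -0.29).

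Ndufa1, Atp5g3 and Cox8a fell in each of these comparisons. Ndufa1 had 159, 164 and 204 CPM with NAM and 72.9, 62.7 and 62.6 CPM with TGFβ and NAM, and 132, 135 and 128 CPM with SAM and 50.7, 53.7 and 79.6 CPM with TGFβ and SAM. Its log2 changes were -1.41 and -1.10. Atp5g3 had log2 changes of -0.84 with NAM and -0.88 with SAM, and Cox8a of -0.85 and -0.80. The log2 changes of the 94 members correlated with Pearson r = 0.83 between the comparisons without supplement and with NAM and 0.69 between those without supplement and with SAM, over genes that share libraries and are not independent. Left without Cox6a2 and Cox7a1, these were 0.81 and 0.65.

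Genes that fell in none of the 3 comparisons included 7 of the 8 Ndufaf assembly factors, the core subunit Ndufs3, the acyl carrier protein Ndufab1, the supercomplex factor Cox7a2l and Uqcrb. Uqcrb shares 40.6% of its end with the pseudogene Gm16089. With SAM, Ndufaf5 was the assembly factor that fell, from 14.0 to 5.06 CPM. All 7 mitochondrially encoded genes fell in TGFβ+SAM against SAM, though single libraries ended the call for mt-Nd4, mt-Cytb and mt-Nd6 (adjusted p up to 0.17, 0.095 and 0.11). Without SAM replicates 2 and 3 together, mt-Nd4, mt-Cytb and mt-Nd6 did not pass either (log2 changes -0.39, -0.42 and -0.49). mt-Nd2, which had not passed without a supplement, had 7961, 8276 and 8230 CPM with SAM and 4495, 5672 and 6412 CPM with TGFβ and SAM (log2 change -0.56 ± 0.10, edgeR adjusted p = 1.1e-05). The interaction of SAM with TGFβ did not pass for mt-Nd2 (-0.45, adjusted p = 0.095) or mt-Nd5 (-0.46, adjusted p = 0.081), so their responses were not shown to differ.

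**Figure D5:**
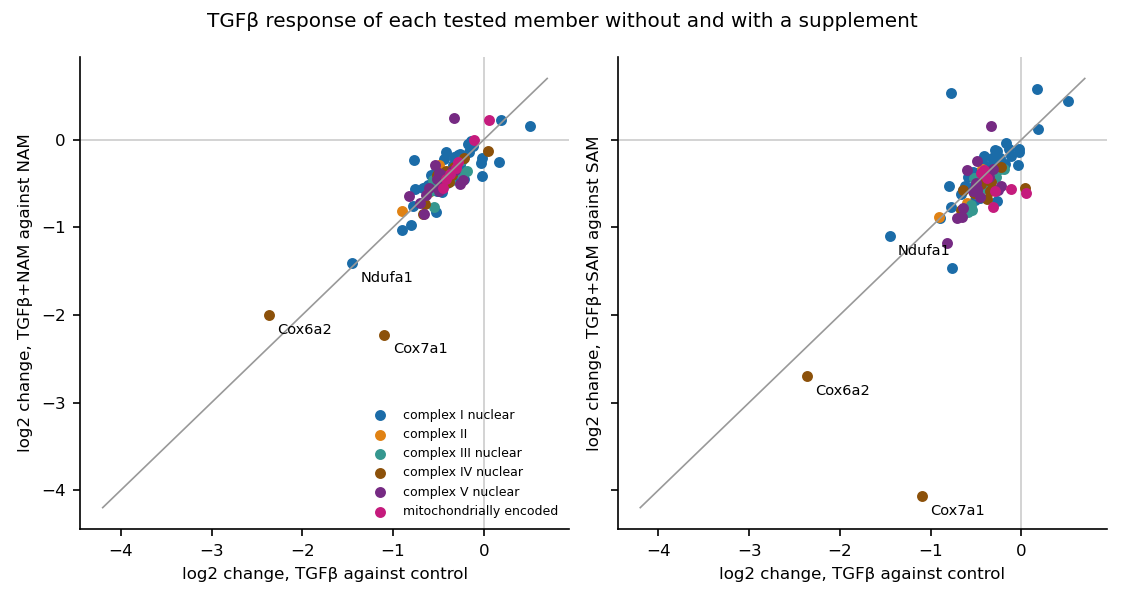
Log2 change of each of the 94 tested members in TGFβ against control (horizontal axis) and in TGFβ+NAM against NAM or TGFβ+SAM against SAM (vertical axes), with the line of equal change. Colours mark complex and genome. Most points lie near the line and below 0 on both axes, and Cox7a1 lies furthest below the line in the SAM panel (-4.07 against -1.10).

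In NAM against control 0 members passed, as did 1 of 13469 genes (0.00742%). Member log2 changes ran from -0.33 to 0.52, with 4 at an unadjusted p under 0.05, and DESeq2 also called 0. In TGFβ+NAM against TGFβ 0 members passed with edgeR or DESeq2, where 0.0817% of all genes did (0.0297% higher and 0.0520% lower), and 2 had an unadjusted p under 0.05. The interaction of NAM with TGFβ called 0 members with edgeR or DESeq2, and 0 had an unadjusted p under 0.05. edgeR called 0 of all genes in it (0%). The median SE of the members in NAM against control was 0.11 on the log2 scale. In mt-Rnr1, low values were found for NAM replicate 3 and for replicate 1 of TGFβ+NAM (7448 and 7611 CPM, against 10545 to 13995 in the other libraries of their groups). Without both, Ndufb6 passed as lower in TGFβ+NAM against TGFβ (-0.47, adjusted p = 0.0499).

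SAM alone called 11 members against control, 9 higher and 2 lower. That share, 11.7%, is near the 11.8% of all genes called in this comparison, so the count is no result about the members. The higher share alone was 9.57% against 5.02% of all genes, and the lower share 2.13% against 6.79%. The SAM libraries carry a separate run of library numbers from those without SAM. The labels do not say what this run marks, and anything it marks cannot be told apart from SAM. The treatment tags of SAM replicates 2 and 3 also differ from their titles, and without both, 0 members passed. A lone SAM library then remained, and log2 values stayed of similar size for several members, at 0.35 for Cox4i1, 0.41 for Cox5b, 0.32 for mt-Nd2 and -0.45 for mt-Nd4, with adjusted p from 0.11 to 0.49 over the 11 members.

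Higher with SAM were the complex IV subunits Cox6a1 (0.36), Cox4i1 (0.34) and Cox5b (0.45), the complex III subunits Uqcrc1 (0.39) and Uqcr10 (0.34), Ndufa12 (0.32) and the assembly factor Ndufaf4 (0.38), all as log2 changes. Cox6a1 had 804, 884 and 886 CPM with SAM against 701, 658 and 646 CPM in control (edgeR adjusted p = 0.0012). No SAM library reached down to the control range. Ndufv3 fell by 0.45 on the log2 scale. Of these, Cox6a1 and Cox4i1 kept their call when any 1 library of the pair of groups was left out. Single libraries ended the call for Cox5b, Uqcrc1, Uqcr10, Ndufa12, Ndufaf4 and Ndufv3, with adjusted p up to 0.21 (Ndufaf4 without SAM replicate 3, Ndufv3 without SAM replicate 2).

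The mitochondrially encoded genes moved in both directions with SAM. mt-Nd4 had 16326, 15855 and 15092 CPM with SAM against 23016, 22453 and 21292 CPM in control (log2 change -0.50 ± 0.11, edgeR adjusted p = 0.00095). mt-Nd2 rose by 0.36 (± 0.10, edgeR adjusted p = 0.0091) and mt-Co1 by 0.28 (± 0.07, edgeR adjusted p = 0.0092), with 1214, 1282 and 1269 CPM with SAM. mt-Nd1 and mt-Cytb stood at 0.04 and -0.10 and did not pass. All of these genes but mt-Nd6 are transcribed from the same strand as a long shared precursor. The ribosomal RNAs were higher too, by 0.42 for mt-Rnr1 and 0.35 for mt-Rnr2 (adjusted p = 0.023 and 0.0089). mt-Co1 lost its call without control replicate 2 (0.23, adjusted p = 0.088).

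The TGFβ+SAM libraries also belong to the separate run of library numbers, so anything that run marks cannot be told apart from SAM here either. With TGFβ in both groups, 5 members were lower and 0 higher in TGFβ+SAM against TGFβ. Of all genes 7.32% were called there, 4.25% lower and 3.07% higher. The share of the members, 5.32%, is near that background. The 5 were Ndufa6 (-0.38), Ndufaf2 (-0.54), Cox7a1 (-2.25), mt-Nd4 (-0.43) and mt-Nd5 (-0.35). mt-Nd4 had 11557, 10077 and 15669 CPM with both agents and 16650, 13496 and 20095 CPM with TGFβ alone, so the groups overlapped. Each of the 5 lost its call when some 1 library was left out, and without TGFβ+SAM replicate 1 none passed. In TGFβ+SAM against untreated control, where the same limit holds, 60 members were lower and 1 higher. Of all genes 26.6% were called there, 14.1% lower and 12.5% higher. The riser was the complex I assembly factor Ndufaf1, from 7.70 ± 0.80 to 13.5 ± 2.73 CPM (log2 change 0.81 ± 0.26, edgeR adjusted p = 0.017), and it did not pass without control replicate 1 or 2 or TGFβ+SAM replicate 1 or 2 (adjusted p from 0.062 to 0.071).

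The interaction of SAM with TGFβ asks whether the TGFβ response differs with SAM. It called 1 of 94 members as lower, where 1.43% of all genes were called, 0.631% lower and 0.802% higher. Cox7a1 had 4.37, 11.7 and 5.91 CPM in control and 3.37, 4.08 and 2.70 CPM with TGFβ. It had 12.6, 11.3 and 12.6 CPM with SAM and 0, 0.33 and 1.71 CPM with TGFβ and SAM, the latter from 0, 2 and 11 reads. With SAM the groups lay far apart, whereas without it they lay closer. The log2 changes were -1.10 ± 0.45 without and -4.07 ± 0.54 with SAM, and the interaction was -2.97 ± 0.71 (edgeR adjusted p = 0.018). With NAM the TGFβ response was -2.22 (edgeR adjusted p = 0.00034) and the interaction of NAM with TGFβ did not pass. DESeq2 gave no adjusted p for Cox7a1 in the SAM interaction, so it is no second test of it. With edgeR the call was lost without control replicate 1 or 3, TGFβ replicate 2 or TGFβ+SAM replicate 1 or 2 (log2 values from -2.83 to -2.44, adjusted p from 0.051 to 0.075). It was also lost without SAM replicates 2 and 3 together (log2 value -3.02, 1 SAM library left).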

How the data were processed

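Reads per gene came from QuantSeq 3′ mRNA libraries, which tag polyadenylated transcripts near their 3′ end. The deposited table holds raw counts of 18 libraries, and the submitters' processing notes name STAR, HTSeq and the build GRCh38, without versions. Since the identifiers are those of mouse genes, the build used is unsettled, and strand setting and the treatment of reads with several matches are not given in the sources used here. Symbols and coordinates were taken from GENCODE M21 (GRCm38), and promoters from RefSeq (GRCm38.p6). Of the 55487 rows, 55227 matched a symbol. Reads outside genes, 22.8% to 28.2% per library, were left out.

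Tests used edgeR 4.0.16 in R 4.3.3: TMM scaling, filterByExpr with a minimum count of 10 (13469 genes), 1 quasi-likelihood fit of all libraries, two-sided tests of 8 comparisons and 2 interactions, and Benjamini-Hochberg adjusted p under 0.05 over all genes. The procedure was tested on simulated data. Values are CPM with TMM factors, log2 changes are ± SE. All complex II and mitochondrially encoded members were named. From the other groups the rule named up to 5 members with the smallest p in TGFβ against control, up to 3 in each other comparison, those called against their group or in an interaction, the member with the highest mean CPM and tissue isoforms with reads. Of each other list, up to 4 called genes were named. Further subunits, Cs, Tfam, Nrf1, Esrra and Yy1 were named for their role after their values were seen. Some genes of the lists are not reported here by name. The promoters of Atp5a1 and of Cox8a, whose match runs past the printed stretch, are not shown. The members, lists and rules were chosen with earlier results of these data known. Alternatives were DESeq2 1.42.0, other scalings and filters, fits of the compared groups only, a replicate block and libraries left out.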

Additional observations from a re-analysis of the deposited data

Results flagged for a closer look

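The response of Cox7a1 to TGFβ was called as different between cells with and without SAM, by the test of the interaction: -2.97 ± 0.71 on the log2 scale (edgeR adjusted p = 0.018). The call was lost without control replicate 1 or 3, TGFβ replicate 2 or TGFβ+SAM replicate 1 or 2 (edgeR adjusted p from 0.051 to 0.075). It was also lost without SAM replicates 2 and 3 together, whose treatment tags differ from their titles (log2 value -3.02, 1 SAM library left). The gene had 57 reads over the 3 TGFβ libraries and 13 over the TGFβ+SAM libraries, against 148 in control and 228 in SAM. In the SAM libraries its level was 11.3 to 12.6 CPM, and 2 of the 3 TGFβ+SAM libraries held 0 and 2 reads. It was 1 of 94 members tested (1.06%), where 1.43% of all genes were called. Groups of 3 libraries are too small for a check of single outlying libraries.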

How the results depend on the processing

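The count of members called in TGFβ against control (63) was 52 to 58 when any 1 library of the compared groups was left out, 53 to 62 for TGFβ+NAM against NAM (62) and 57 to 67 for TGFβ+SAM against SAM (68). For SAM against control (11) leaving out 1 library gave 6 to 8, for TGFβ+SAM against TGFβ (5) it gave 0 to 5, for TGFβ+SAM against control (61) 54 to 65 and for the interaction of SAM with TGFβ (1) 0 to 3. In SAM against control 22 members were called when only the compared groups were fitted and 0 without SAM replicates 2 and 3 together, where the lone SAM library is assumed to vary like the other groups. Without NAM replicate 3 and TGFβ+NAM replicate 1 together, 1 member was called in TGFβ+NAM against TGFβ, 8 in TGFβ+SAM against TGFβ and 3 in the interaction of SAM with TGFβ. That interaction gave 0 with DESeq2, which gave no adjusted p for Cox7a1, 3 with no low-count filter and 3 with only the compared groups. Without SAM replicates 2 and 3 a lone SAM library remained. The SAM interaction of Cox7a1 then had a log2 value of -3.02 and did not pass. Why the counts of members called differ between settings was not tested. The shares of all genes called under these settings are not given here, so the counts stand without a background. A replicate block gave 62, 62 and 68 for the TGFβ comparisons without supplement, with NAM and with SAM, 10 for SAM against control, 5 for TGFβ+SAM against TGFβ, 61 for TGFβ+SAM against control, 1 for the interaction of SAM with TGFβ and 0 for the others. Same-numbered libraries did not deviate together (mean r = 0.0020 over 45 pairs, 0 above 0.1), so the numbers were not taken as pairs. Of 2917 values of named members under alternatives, 134 lost the call and 0 reversed. These values belong to 182 calls, of which 42 were lost under at least 1 alternative. Leaving out 1 library was enough for 36 of them. Low reads limit Cox6a2 and Cox7a1, and 6 mitochondrially encoded genes could not be measured.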

Other observations

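Outside the members, the genes above 50 CPM whose log2 CPM followed the mean of the 7 measured mitochondrially encoded genes most closely over the 18 libraries were Sec62 (Pearson r = 0.94), Dpysl2 (0.94), Magi3 (0.94), Tfrc (0.93) and Mdh1 (0.93), out of 4094 genes compared. The libraries share groups and scaling, so this is a description. Among the mitochondrially encoded genes themselves, mt-Nd1 and mt-Cytb were most alike (0.93), and mt-Nd4 followed mt-Cytb (0.82) more than mt-Nd2 (0.23).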
